A study of Mus musculus with 65 samples.

Results

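The comparison described here set neural stem cells of old mice that were differentiated for 48 h with doxycycline against neural stem cells of young mice differentiated for 48 h without it. It holds 9 of the 65 libraries of the series, 4 from doxycycline old cultures and 5 from untreated young cultures, and its members were taken from the group labels alone, with no measured value. Both groups carry the same iOSKM genotype, a doxycycline-inducible cassette for Oct4 (Pou5f1), Sox2, Klf4 and Myc, so the young controls carry the cassette too. The doxycycline old group came from animals of 25 months (2 females and 2 males) and received doxycycline at 2 µg per ml. The untreated young group came from animals of 3 to 4 months (3 females and 2 males) and received none. Age and doxycycline differ together between these groups, so the comparison on its own cannot tell them apart. Untreated old cultures at the same time (n = 4, from the same old animals) are therefore given beside it for part of the gene lists and named genes.

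Per the labels, primary cells of the adult subventricular zone were plated on poly-D-lysine and laminin in Neurobasal-A with B27, EGF and bFGF, and differentiation meant a change, 18 h after plating, to medium without both growth factors. Total RNA was purified on Qiagen RNeasy columns, and stranded poly(A) libraries were sequenced together as paired reads. Neural stem cells of the subventricular zone give rise to astrocytes, to neuroblasts that become olfactory bulb interneurons, and to oligodendrocyte precursors. EGF and FGF signalling keeps them dividing, and withdrawal of these factors lets them leave the stem cell state. Short induction of the cassette factors is known as partial reprogramming, and this group of libraries asks how treated old cultures stand relative to young ones. In bulk RNA, fewer cells of a type and less RNA per cell cannot be told apart.

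The 4 doxycycline old libraries held 80.6 M to 103.6 M counts and the 5 untreated young libraries 72.5 M to 98.0 M, among totals of 56.5 M to 116.8 M over the series. Levels are CPM after TMM scaling of the library totals, given as mean ± SD (n = 4 doxycycline old, 4 untreated old and 5 untreated young). Mitochondrially encoded genes took 2.15 ± 0.235% of counts in doxycycline old and 2.12 ± 0.194% in untreated young libraries. Features overlapping ribosomal RNA took 1.81 ± 1.03% in doxycycline old and 2.57 ± 0.335% in untreated young libraries, with doxycycline old replicate 2 at 0.271%. The 100 highest genes took 18.8 ± 0.987% in doxycycline old and 20.5 ± 0.282% in untreated young libraries (exact two-sided permutation p = 0.0159, the smallest the test can give, adjusted p = 0.0406 over 23 single values). Levels of sex-linked genes matched the labelled sex in all 65 libraries.

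The cassette factors were read first. Pou5f1, the pluripotency factor among them, had 0.444, 0.245, 0.266 and 0.377 CPM in doxycycline old cultures. Pou5f1 had 0.26, 0.167, 0.259, 0.098 and 0.0697 CPM in untreated young cultures. Most doxycycline old values were higher, but the ranges overlapped, and the difference did not pass the threshold (log2 fold change 0.93 ± 0.38, edgeR adjusted p = 0.116, exact permutation p = 0.0635). Untreated old cultures had 0.186 ± 0.0715 CPM of Pou5f1. Sox2, which neural stem cells also express from their own gene, averaged 277 ± 10.5 CPM in doxycycline old cultures and 311 ± 17.3 CPM in untreated young cultures and was lower (log2 fold change -0.17 ± 0.048, edgeR adjusted p = 0.0336). Klf4 was lower as well, at 1.16 ± 0.224 CPM in doxycycline old cultures and 1.61 ± 0.108 CPM in untreated young cultures (log2 fold change -0.47 ± 0.15, edgeR adjusted p = 0.0459). Myc averaged 92.9 ± 8.61 CPM in doxycycline old cultures and 80.5 ± 9.62 CPM in untreated young cultures and was not called (log2 fold change 0.21 ± 0.088, edgeR adjusted p = 0.136). M2rtTA, the transactivator that doxycycline binds, averaged 101 ± 5.35 CPM in doxycycline old cultures and 101 ± 8.09 CPM in untreated young cultures (log2 fold change 0.01 ± 0.057, edgeR adjusted p = 0.916). For these 4 factors the table does not separate transcripts of the cassette from those of the endogenous genes. The M2rtTA feature is 7979 bases long, and the table does not show which part of it the reads cover. Besides M2rtTA the table holds features for 2A sequences, which join proteins encoded on one transcript: P2A (57 bases), T2A (54 bases) and E2A (60 bases). Each of these had 0 counts in all 9 libraries, which allows up to 3 counts a library (0.0289 to 0.0414 CPM, counting error only). In the whole series 5 libraries had 2 to 4 counts of one of them, 4 of them with doxycycline and 1 untreated. Sox2 missed the threshold without doxycycline old replicate 2 or 3 or untreated young replicate 3, 4 or 5 (adjusted p from 0.0551 to 0.113). Klf4 missed the threshold without doxycycline old replicate 1, 2 or 3 or untreated young replicate 1, 2, 3, 4 or 5 (adjusted p from 0.0534 to 0.111), with no filter on low counts (adjusted p = 0.0624) and with sex as covariate (adjusted p = 0.0504). Myc passed it without untreated young replicate 2 (adjusted p = 0.0359). Of 11 other pluripotency genes 5 could be tested and none was called by edgeR (median log2 fold change -0.21, 1 at an unadjusted p under 0.05).

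Across the transcriptome, 17001 genes were tested with edgeR and 3175 were called at an adjusted p under 0.05 (18.7%). Of these 1583 (9.31% of tested genes) were higher and 1592 (9.36%) lower in doxycycline old cultures, and the median log2 fold change over all tested genes was -0.0093. Groups did not overlap in CPM for 2937 genes (17.3%), 1482 of them higher (8.72%) and 1455 lower (8.56%) in doxycycline old cultures. The count of calls rested in part on single libraries: it was 1628 without doxycycline old replicate 3, 1999 without doxycycline old replicate 4 and 2032 without untreated young replicate 1. All 3 of these libraries came from males. Sex lay along the first principal component of the 9 libraries, which held 51.7% of the variance (sex accounted for 78.3% of its spread and group for 23.9%). Group lay along the second, which held 27.9% (group accounted for 66.2% and sex for 19.7%). Within males (2 against 2) 1728 genes were called, and within females (2 against 3) 123.

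Values of the neighbouring comparisons, which share libraries with this one, stand beside it. Untreated old against untreated young cultures gave 1815 calls of 17043 tested genes (10.6%), 960 higher (5.63%) and 855 lower (5.02%). That count was 572 without untreated old replicate 3, 747 without untreated old replicate 2, 883 without untreated old replicate 4 and 806 without untreated young replicate 1, and 2747 with DESeq2. Doxycycline old against untreated old cultures gave 5 calls of 16889 (0.0296%), 4 higher (0.0237%) and 1 lower (0.00592%), and 701 (4.15%) when libraries of the same animal were paired, 360 higher (2.13%) and 341 lower (2.02%). The labels hold codes that look like well positions, and their number is 8 in all 4 doxycycline old libraries and 7 in all 5 untreated young libraries, while both 7 and 8 occur in untreated old libraries. The labels do not say what the codes mean, and whatever they stand for cannot be told apart from the groups.

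Genes of oligodendrocyte precursors and of newly formed oligodendrocytes were higher in doxycycline old cultures. Of 17 precursor genes 8 were higher and 1 lower (median log2 fold change 0.38), and their summed level was 8371 to 10426 CPM in doxycycline old and 5095 to 6791 CPM in untreated young libraries. Gpr17, a receptor that marks precursors committed to differentiation (ENSMUSG00000052229, chr18:31942997-31949636, mm10), was the largest of these in level. It had 2569.5, 2965, 3498 and 3413 CPM in doxycycline old cultures. Gpr17 had 1204, 1621, 883, 1846 and 1464 CPM in untreated young cultures. Every treated old library lay above every young one (log2 fold change 1.15 ± 0.20, edgeR adjusted p = 0.00505). That separation was required by the rule under which Gpr17 was named. Tnr, which encodes the matrix protein tenascin-R of the oligodendrocyte lineage (chr1:159523769-159931729), had 1940.1, 1695, 2365 and 2511 CPM in doxycycline old cultures. Tnr had 920.4, 1128, 729, 1385 and 1208 CPM in untreated young cultures. The groups did not overlap (log2 fold change 0.99 ± 0.19, edgeR adjusted p = 0.00791).

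Other precursor genes moved the same way. Neu4, a sialidase of the oligodendrocyte lineage, averaged 46.1 ± 6.05 CPM in doxycycline old cultures and 21.4 ± 6.76 CPM in untreated young cultures (log2 fold change 1.11 ± 0.24, edgeR adjusted p = 0.0148). C1ql1, a secreted C1q-like protein made by precursors, averaged 82.9 ± 10.96 CPM in doxycycline old cultures and 42.9 ± 8.87 CPM in untreated young cultures (log2 fold change 0.95 ± 0.16, edgeR adjusted p = 0.00545). Nkx2-2, a transcription factor of precursor differentiation, reached 81.8 ± 7.79 CPM in doxycycline old cultures, and 49.4 ± 6.33 CPM in untreated young cultures (log2 fold change 0.73 ± 0.10, edgeR adjusted p = 0.00132). Bmp4, a secreted BMP ligand that committed precursors also make, averaged 20.7 ± 7.38 CPM in doxycycline old cultures and 7.47 ± 3.09 CPM in untreated young cultures (log2 fold change 1.47 ± 0.38, edgeR adjusted p = 0.0309). The proteoglycan gene Cspg4 (NG2; log2 fold change 0.34 ± 0.055, edgeR adjusted p = 0.00202) and the precursor gene Lhfpl3 (log2 fold change 0.38 ± 0.052, edgeR adjusted p = 0.00113) were higher by less. Pdgfra, the PDGF receptor of early precursors, was the member that was lower, at 76.2 ± 8.09 CPM in doxycycline old cultures and 103 ± 10.1 CPM in untreated young cultures (log2 fold change -0.43 ± 0.087, edgeR adjusted p = 0.0079). Olig1 (log2 fold change -0.09 ± 0.10, edgeR adjusted p = 0.61), Olig2 (log2 fold change 0.18 ± 0.07, edgeR adjusted p = 0.0778) and Sox10 (log2 fold change 0.23 ± 0.19, edgeR adjusted p = 0.466), transcription factors of the whole lineage, were not called. Bmp4 missed the threshold without doxycycline old replicate 3 or 4 or untreated young replicate 1 (adjusted p from 0.0652 to 0.091), with no filter on low counts (adjusted p = 0.0557) and with sex as covariate (adjusted p = 0.0512). Lhfpl3 missed the threshold in a fit over all 65 libraries (adjusted p = 0.0522). Pdgfra missed the threshold in a fit over all 65 libraries (adjusted p = 0.0898).

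Myelin genes had a median log2 fold change of 0.62, with 4 higher and 1 lower of 16 tested members and summed levels of 2173 to 3491 CPM in doxycycline old and 969 to 2388 CPM in untreated young libraries. These ranges overlapped, and the summed level did not pass (exact two-sided permutation p = 0.0317, adjusted p = 0.0664 over 23 single values). Pllp, a myelin membrane protein outside that list and among the 15 genes with the largest increase (of called genes of at least 5 CPM whose groups did not overlap), had 99.6, 118, 139.8 and 125.7 CPM in doxycycline old cultures. Pllp had 53.3, 62.3, 36.7, 59.1 and 63.6 CPM in untreated young cultures (log2 fold change 1.14 ± 0.16, edgeR adjusted p = 0.00273). Its groups did not overlap, as the naming rule required. Fa2h, which makes the hydroxylated fatty acids of myelin lipids, averaged 68.5 ± 13.4 CPM in doxycycline old cultures and 31.8 ± 10.2 CPM in untreated young cultures (log2 fold change 1.11 ± 0.26, edgeR adjusted p = 0.0241). Gal3st1, which makes sulfatide, averaged 42.5 ± 6.30 CPM in doxycycline old cultures and 23.7 ± 5.63 CPM in untreated young cultures (log2 fold change 0.85 ± 0.19, edgeR adjusted p = 0.0149). Opalin, an oligodendrocyte membrane protein, stood at 0.854 ± 0.174 CPM in doxycycline old cultures and 0.472 ± 0.141 CPM in untreated young cultures (log2 fold change 0.86 ± 0.24, edgeR adjusted p = 0.0281). Cnp, an enzyme of early myelinating cells, averaged 982 ± 141 CPM in doxycycline old cultures and 672 ± 145 CPM in untreated young cultures, with overlapping ranges (log2 fold change 0.55 ± 0.16, edgeR adjusted p = 0.0402).

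Mbp, which encodes myelin basic protein, was not called. It had 113, 139, 217 and 339.5 CPM in doxycycline old cultures. Mbp had 62.4, 103, 36.2, 200.2 and 165 CPM in untreated young cultures, and both groups ranged widely (log2 fold change 0.83 ± 0.57, edgeR adjusted p = 0.372). Mal, a lipid raft protein of myelin, was lower at 1.46 ± 0.191 CPM in doxycycline old cultures and 2.41 ± 0.5 CPM in untreated young cultures (log2 fold change -0.72 ± 0.16, edgeR adjusted p = 0.0109). The myelin calls rested on single libraries: the count of higher members was 0 without doxycycline old replicate 3, 1 without untreated young replicate 1, 2 without doxycycline old replicate 4 or untreated young replicate 2 and 7 without untreated young replicate 4. Fa2h missed the threshold without doxycycline old replicate 3 or 4 or untreated young replicate 1 (adjusted p from 0.0599 to 0.0747). Gal3st1 missed the threshold without doxycycline old replicate 3 (adjusted p = 0.0513). Opalin missed the threshold without doxycycline old replicate 3 or untreated young replicate 1, 2 or 3 (adjusted p from 0.0549 to 0.107). Cnp missed the threshold without doxycycline old replicate 2, 3 or 4 or untreated young replicate 1, 2, 3 or 5 (adjusted p from 0.0504 to 0.111) and with no filter on low counts (adjusted p = 0.0775).

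Untreated old cultures had mean levels of Gpr17 and Pllp between those of the other groups. Gpr17 averaged 2588 ± 266 CPM and Pllp 97.4 ± 15.7 CPM in untreated old cultures. For the oligodendrocyte precursor list, untreated old against untreated young cultures gave 4 higher and 1 lower of 17 tested members (median log2 fold change 0.27). Doxycycline old against untreated old cultures, paired by animal, gave 8 higher and 0 lower of 17 tested members (median log2 fold change 0.14). The myelin list gave 0 higher and 1 lower of 16 tested members (median log2 fold change 0.45) in the first of these and 7 higher and 0 lower of 15 tested members (median log2 fold change 0.16) in the second. With libraries of the same animal paired, Gpr17 (log2 fold change 0.26 ± 0.038, edgeR adjusted p = 0.0016) and Tnr (log2 fold change 0.35 ± 0.044, edgeR adjusted p = 0.000555) were higher in doxycycline old than in untreated old cultures. So was Fa2h (log2 fold change 0.28 ± 0.034, edgeR adjusted p = 0.000407).

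**Figure D1:**
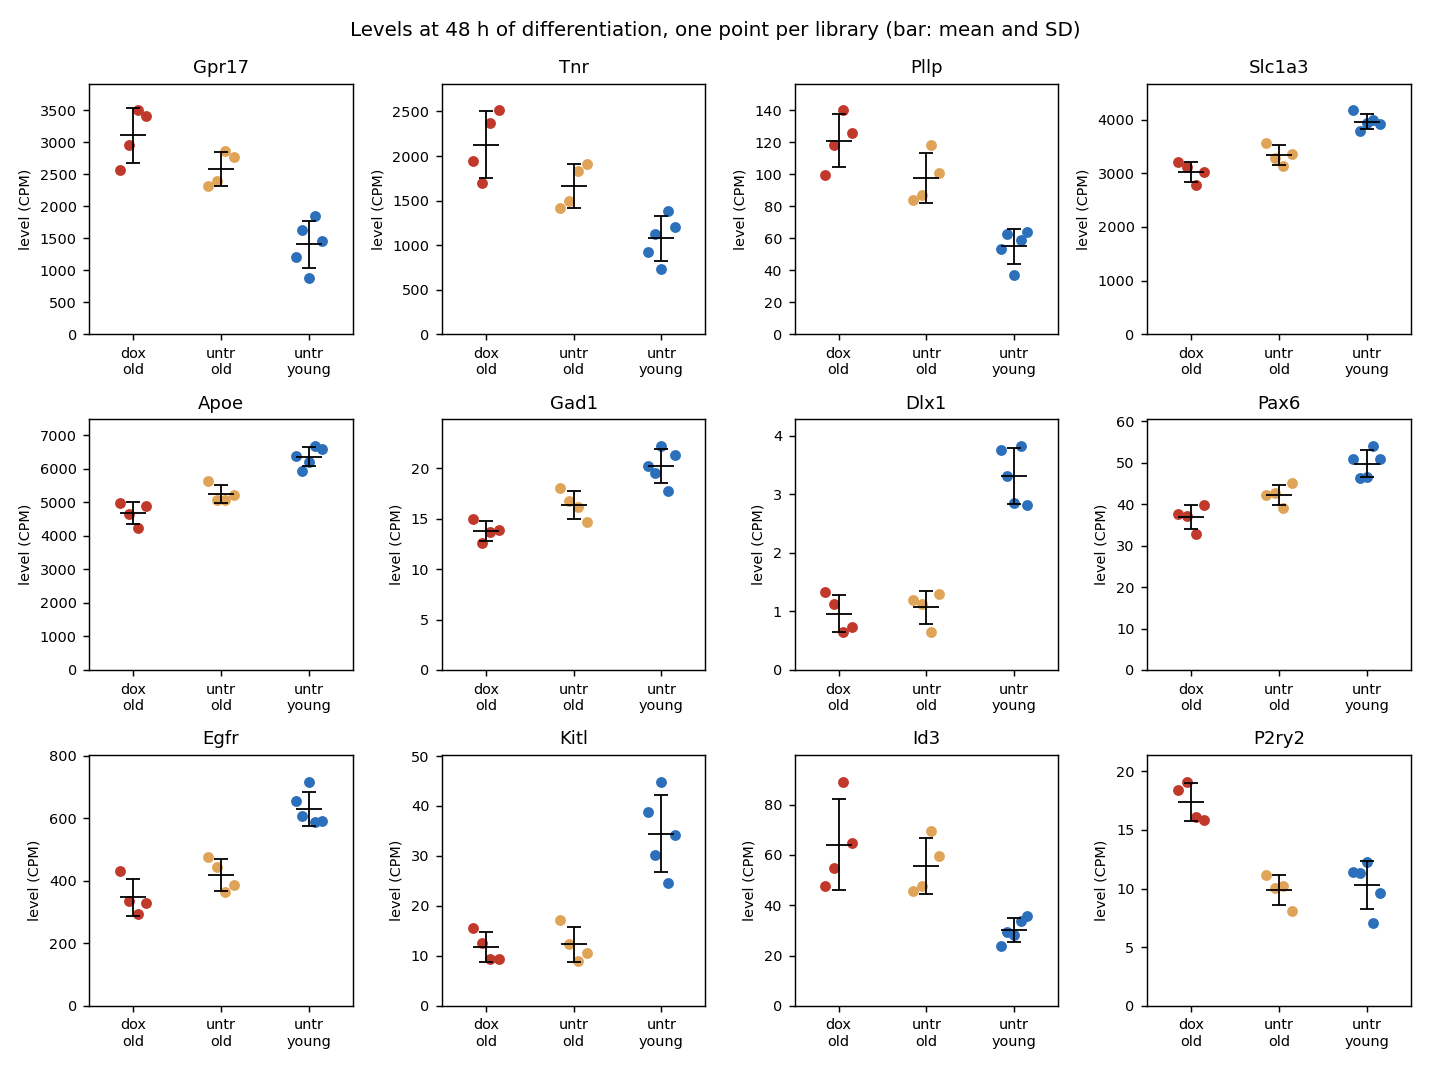
Level of 12 genes in each library of 48 h differentiation, in TMM-scaled CPM, for doxycycline old (n = 4), untreated old (n = 4) and untreated young (n = 5) cultures; points are libraries and bars are mean ± SD. For each gene drawn, no doxycycline old library overlaps the untreated young libraries: Gpr17 runs from 2569.5 to 3498 CPM in doxycycline old and from 883 to 1846 CPM in untreated young libraries. The naming rule required this of some of them, Gpr17, Pllp and Kitl among these.

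Astrocyte genes were lower. Of 20 tested members 14 were lower and none was higher (median log2 fold change -0.35; 16 of 20 at an unadjusted p under 0.05), and their summed level was 19262 to 21342 CPM in doxycycline old and 24896 to 27886 CPM in untreated young libraries, ranges that did not overlap. Slc1a3, the glutamate transporter GLAST (ENSMUSG00000005360, chr15:8634124-8710764), had 3216, 3118, 2776 and 3019.7 CPM in doxycycline old cultures. Slc1a3 had 4175, 3786, 3938, 3992 and 3920.4 CPM in untreated young cultures. Each treated old library lay below each young one (log2 fold change -0.38 ± 0.055, edgeR adjusted p = 0.00132). Apoe, the lipid carrier that astrocytes secrete, had 4966, 4660.1, 4248 and 4876 CPM in doxycycline old cultures. Apoe had 6395, 5948, 6217, 6672 and 6603 CPM in untreated young cultures, again without overlap (log2 fold change -0.44 ± 0.062, edgeR adjusted p = 0.00122).

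The membrane protein gene Mlc1 averaged 1003 ± 98.3 CPM in doxycycline old cultures and 1401 ± 97.5 CPM in untreated young cultures (log2 fold change -0.48 ± 0.071, edgeR adjusted p = 0.0014). Slc1a2, the glutamate transporter GLT-1, averaged 1645 ± 238 CPM in doxycycline old cultures and 2430.3 ± 243 CPM in untreated young cultures (log2 fold change -0.56 ± 0.10, edgeR adjusted p = 0.00406). Slco1c1, a thyroid hormone transporter, averaged 1.33 ± 0.273 CPM in doxycycline old cultures and 2.86 ± 0.331 CPM in untreated young cultures (log2 fold change -1.10 ± 0.15, edgeR adjusted p = 0.00111). Gfap, the intermediate filament gene used most often to mark astrocytes, had 312, 299.8, 622 and 862 CPM in doxycycline old cultures. Gfap had 381, 288, 137, 1142 and 577 CPM in untreated young cultures and did not differ beyond its wide spread (log2 fold change 0.05 ± 0.65, edgeR adjusted p = 0.968). Nor were Aqp4, the water channel of astrocyte endfeet (log2 fold change -0.09 ± 0.18, edgeR adjusted p = 0.769), and S100b (log2 fold change 0.07 ± 0.09, edgeR adjusted p = 0.62) called. The count of lower members was 9 without doxycycline old replicate 3 or 4 or untreated young replicate 1. Apoe missed the threshold in a fit over all 65 libraries (adjusted p = 0.323). For the astrocyte list, untreated old against untreated young cultures gave 0 higher and 7 lower of 20 tested members (median log2 fold change -0.22). Doxycycline old against untreated old cultures, paired by animal, gave 0 higher and 9 lower of 20 tested members (median log2 fold change -0.16).

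The neuroblast and neuron list held members that were lower, with Dlx1, Dlx2 and Gad1 among them, and members that were higher. Of 19 tested neuroblast and neuron genes 11 were lower and 3 higher (median log2 fold change -0.44). Dlx5, among the 11, passed the filter on low counts through the young libraries alone. The summed level of the list was 1712 to 1811 CPM in doxycycline old and 1613 to 1949.5 CPM in untreated young libraries, and these ranges overlapped (exact two-sided permutation p = 0.556). Dlx1, a homeobox factor of forebrain interneurons (ENSMUSG00000041911, chr2:71528113-71533981), had 1.33, 1.121, 0.654 and 0.742 CPM in doxycycline old cultures. Dlx1 had 3.76, 3.32, 2.85, 3.82 and 2.82 CPM in untreated young cultures. The groups stood far apart at this low level (log2 fold change -1.78 ± 0.20, edgeR adjusted p = 0.000566). Its neighbour Dlx2 averaged 2.19 ± 0.385 CPM in doxycycline old cultures and 5.04 ± 0.8289 CPM in untreated young cultures (log2 fold change -1.20 ± 0.15, edgeR adjusted p = 0.000767). Gad1, which makes GABA, had 15, 12.6, 13.6 and 13.9 CPM in doxycycline old cultures. Gad1 had 20.3, 19.5, 22.2, 17.8 and 21.4 CPM in untreated young cultures (log2 fold change -0.55 ± 0.072, edgeR adjusted p = 0.000954). All 4 treated old values of Gad1 were below the young ones.

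Igfbpl1, expressed in neuroblasts, averaged 1.38 ± 0.0763 CPM in doxycycline old cultures and 3.04 ± 0.474 CPM in untreated young cultures (log2 fold change -1.15 ± 0.13, edgeR adjusted p = 0.000579). Robo2, a receptor for Slit guidance cues, averaged 49.6 ± 4.29 CPM in doxycycline old cultures and 73.4 ± 7.08 CPM in untreated young cultures (log2 fold change -0.57 ± 0.079, edgeR adjusted p = 0.0014). Insm1, a factor of neuronal progenitors outside the list, averaged 12.6 ± 2.37 CPM in doxycycline old cultures and 21.9 ± 1.07 CPM in untreated young cultures (log2 fold change -0.80 ± 0.11, edgeR adjusted p = 0.00134). Among the 3 members that were higher was Dcx, the microtubule protein of migrating neuroblasts (179 ± 13.9 CPM in doxycycline old cultures and 140.2 ± 13.9 CPM in untreated young cultures; log2 fold change 0.35 ± 0.075, edgeR adjusted p = 0.00946). The others were the RNA-binding protein genes Elavl3 (log2 fold change 0.45 ± 0.088, edgeR adjusted p = 0.00688) and Elavl4 (log2 fold change 0.50 ± 0.084, edgeR adjusted p = 0.00261). The neuronal genes Tubb3 (log2 fold change 0.15 ± 0.12, edgeR adjusted p = 0.417), Map2 (log2 fold change -0.01 ± 0.06, edgeR adjusted p = 0.899) and Snap25 (log2 fold change 0.03 ± 0.09, edgeR adjusted p = 0.849) were not called. Dlx6, Sp8 and Stmn2 were too low to test. The count of lower members was 7 without doxycycline old replicate 3. Dcx missed the threshold in a fit over all 65 libraries (adjusted p = 0.311). In untreated old against untreated young cultures 2 higher and 8 lower of 19 tested members (median log2 fold change -0.30) were called, with Dlx1 at -1.63 ± 0.18 and Dlx2 at -1.29 ± 0.14 on the log2 scale. Paired by animal, doxycycline old against untreated old cultures gave 1 higher and 2 lower of 18 tested members (median log2 fold change -0.004).

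Transcription factors that mark position in the forebrain were lower as a group: 12 of 18 tested members were lower and none was higher (median log2 fold change -0.38, 15 of 18 at an unadjusted p under 0.05). Zic4, among the 12, passed the filter on low counts through the young libraries. Otx2, a factor of forebrain and midbrain, had 1.73, 1.74, 1.07 and 1.23 CPM in doxycycline old cultures. Otx2 had 4.16, 3.48, 3.27, 4.92 and 3.29 CPM in untreated young cultures (log2 fold change -1.40 ± 0.18, edgeR adjusted p = 0.000848), with no overlap. Zic1, a zinc finger factor of medial and dorsal regions, averaged 0.297 ± 0.0999 CPM in doxycycline old cultures and 1.85 ± 0.955 CPM in untreated young cultures (log2 fold change -2.64 ± 0.44, edgeR adjusted p = 0.00339). Nr2f2, an orphan nuclear receptor, averaged 2.27 ± 0.628 CPM in doxycycline old cultures and 4.73 ± 0.911 CPM in untreated young cultures (log2 fold change -1.06 ± 0.20, edgeR adjusted p = 0.00588). Meis2 was lower by less, at 98.5 ± 3.90 CPM in doxycycline old cultures and 118 ± 5.83 CPM in untreated young cultures (log2 fold change -0.26 ± 0.044, edgeR adjusted p = 0.00286). Six3, a further forebrain factor, was not called (log2 fold change -0.14 ± 0.05, edgeR adjusted p = 0.0922). Untreated old against untreated young cultures gave 0 higher and 11 lower of 18 tested members (median log2 fold change -0.22), and doxycycline old against untreated old cultures, paired by animal, 0 higher and 3 lower of 16 tested members (median log2 fold change -0.07). None of 15 Hox genes, which mark hindbrain and spinal cord, was high enough to test.

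Stem cell and progenitor genes were lower, with 10 of 15 called and none higher (median log2 fold change -0.30, 12 of 15 at an unadjusted p under 0.05); the summed level was 4344 to 4817 CPM in doxycycline old and 5089.6 to 6560.2 CPM in untreated young libraries. Egfr, the EGF receptor of activated stem cells and transit-amplifying progenitors (ENSMUSG00000020122, chr11:16752203-16918158), had 431, 335, 295 and 328 CPM in doxycycline old cultures. Egfr had 654, 609, 716, 588 and 591 CPM in untreated young cultures. All treated old values were below the young ones (log2 fold change -0.86 ± 0.10, edgeR adjusted p = 0.000954). Pax6, a progenitor factor, had 37.6, 37.0, 32.9 and 39.8 CPM in doxycycline old cultures. Pax6 had 50.9, 46.4, 46.6, 54.0 and 51.0 CPM in untreated young cultures (log2 fold change -0.43 ± 0.061, edgeR adjusted p = 0.00124). Those groups did not overlap either.

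Tead2, a partner of YAP, averaged 41.6 ± 4.71 CPM in doxycycline old cultures and 61.7 ± 6.11 CPM in untreated young cultures (log2 fold change -0.57 ± 0.088, edgeR adjusted p = 0.00254). Vim, an intermediate filament gene of progenitors and astrocytes, averaged 763 ± 25.7 CPM in doxycycline old cultures and 965 ± 90.4 CPM in untreated young cultures (log2 fold change -0.34 ± 0.066, edgeR adjusted p = 0.00552). Nes, which encodes nestin, was not called (log2 fold change -0.41 ± 0.14, edgeR adjusted p = 0.0664), nor were Fabp7 (log2 fold change -0.30 ± 0.18, edgeR adjusted p = 0.294) and Hopx (log2 fold change 0.27 ± 0.17, edgeR adjusted p = 0.294). Without doxycycline old replicate 3 the count of lower members was 5. For the neural stem cell list, untreated old against untreated young cultures gave 0 higher and 5 lower of 15 tested members (median log2 fold change -0.21). Doxycycline old against untreated old cultures, paired by animal, gave 1 higher and 7 lower of 15 tested members (median log2 fold change -0.13).

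Of 17 receptors and feedback genes of growth factor signalling 10 were lower and none was higher (median log2 fold change -0.29, 11 of 17 at an unadjusted p under 0.05), in medium that held neither EGF nor bFGF. Spry2, an inhibitor of receptor tyrosine kinase signalling that the pathway itself induces, had 119, 122, 103 and 110.1 CPM in doxycycline old cultures. Spry2 had 166, 159, 177, 164 and 154 CPM in untreated young cultures (log2 fold change -0.53 ± 0.054, edgeR adjusted p = 0.000348). The groups were separate. Fgfr1 averaged 214 ± 13.4 CPM in doxycycline old cultures and 275 ± 18.8 CPM in untreated young cultures (log2 fold change -0.36 ± 0.057, edgeR adjusted p = 0.00202). Fgfr2 averaged 61.8 ± 2.36 CPM in doxycycline old cultures and 78.0 ± 5.13 CPM in untreated young cultures (log2 fold change -0.34 ± 0.05, edgeR adjusted p = 0.00152), both FGF receptors. The ERK phosphatase gene Dusp6 (log2 fold change -0.55 ± 0.14, edgeR adjusted p = 0.0277) and Etv5, an ETS factor downstream of FGF (log2 fold change -0.49 ± 0.13, edgeR adjusted p = 0.0287), were lower too, as was the inhibitor gene Spred1 (log2 fold change -0.21 ± 0.039, edgeR adjusted p = 0.0047). Without doxycycline old replicate 3 or 4 the count of lower members was 6. Dusp6 missed the threshold without doxycycline old replicate 3 or 4 or untreated young replicate 1 or 4 (adjusted p from 0.0516 to 0.0913) and with no filter on low counts (adjusted p = 0.0698). Etv5 missed the threshold without doxycycline old replicate 3 or 4 or untreated young replicate 1 (adjusted p from 0.0657 to 0.0911) and with no filter on low counts (adjusted p = 0.0743). Untreated old against untreated young cultures gave 0 higher and 6 lower of 17 tested members (median log2 fold change -0.23).

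Of 30 cell cycle genes 6 were lower, none was higher and 24 were not called (median log2 fold change -0.25, 9 of 30 at an unadjusted p under 0.05). The 20% called was near the 18.7% over all tested genes. Foxm1, a transcription factor of mitotic genes, averaged 3.57 ± 0.295 CPM in doxycycline old cultures and 4.63 ± 0.304 CPM in untreated young cultures (log2 fold change -0.37 ± 0.087, edgeR adjusted p = 0.0127). Hmgb2 averaged 19.1 ± 0.944 CPM in doxycycline old cultures and 23.2 ± 1.76 CPM in untreated young cultures (log2 fold change -0.28 ± 0.061, edgeR adjusted p = 0.00927). Rrm2, a subunit of ribonucleotide reductase, averaged 6.95 ± 0.814 CPM in doxycycline old cultures and 8.99 ± 0.983 CPM in untreated young cultures (log2 fold change -0.37 ± 0.10, edgeR adjusted p = 0.024). Tyms, which makes thymidylate, averaged 6.08 ± 0.459 CPM in doxycycline old cultures and 7.24 ± 0.437 CPM in untreated young cultures (log2 fold change -0.25 ± 0.074, edgeR adjusted p = 0.0344). Mki67, the usual proliferation marker, was not called (log2 fold change -0.45 ± 0.34, edgeR adjusted p = 0.42). This count was 2 without doxycycline old replicate 4 or untreated young replicate 5 and 3 without doxycycline old replicate 3 or untreated young replicate 1, 2 or 3. Hmgb2 missed the threshold in a fit over all 65 libraries (adjusted p = 0.131). Rrm2 missed the threshold without doxycycline old replicate 4 or untreated young replicate 5 (adjusted p from 0.0532 to 0.0665). Tyms missed the threshold without doxycycline old replicate 2, 3 or 4 or untreated young replicate 1, 2, 3 or 5 (adjusted p from 0.0529 to 0.103), with no filter on low counts (adjusted p = 0.0516) and in a fit over all 65 libraries (adjusted p = 0.0805).

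Among 18 inhibitors of cyclin-dependent kinases and senescence genes 1 was higher and 2 were lower (median log2 fold change -0.10), 16.7% called against 18.7% of all tested genes. Cdkn1c, an imprinted gene for the inhibitor p57, had 6.27, 8.08, 11.3 and 9.95 CPM in doxycycline old cultures. Cdkn1c had 3.91, 4.52, 4.15, 4.26 and 5.63 CPM in untreated young cultures. Its treated old values all exceeded the young ones (log2 fold change 0.99 ± 0.16, edgeR adjusted p = 0.00313). Cdkn2a, the p16 and p19 locus, moved the other way, at 38.3 ± 1.23 CPM in doxycycline old cultures and 51.7 ± 3.47 CPM in untreated young cultures (log2 fold change -0.43 ± 0.05, edgeR adjusted p = 0.000579). Hmga1, a chromatin protein of growing cells, averaged 11.98 ± 0.935 CPM in doxycycline old cultures and 14.4 ± 1.24 CPM in untreated young cultures (log2 fold change -0.26 ± 0.076, edgeR adjusted p = 0.0328), and Cdkn1a, the inhibitor p21, was not called (log2 fold change -0.22 ± 0.10, edgeR adjusted p = 0.178). Cdk6, a kinase that drives entry into the cycle, averaged 7.20 ± 1.401 CPM in doxycycline old cultures and 14.9 ± 2.34 CPM in untreated young cultures (log2 fold change -1.05 ± 0.14, edgeR adjusted p = 0.00151). The count of higher members was 2 without doxycycline old replicate 1, and that of lower members 1 without doxycycline old replicate 2 or 4. Hmga1 missed the threshold without doxycycline old replicate 2 or 4 or untreated young replicate 2, 3 or 5 (adjusted p from 0.0567 to 0.0957) and in a fit over all 65 libraries (adjusted p = 0.505).

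Kitl, Igf2bp2, Grb10 and Gas1, whose roles differ, were among the 15 genes with the largest decrease. Kitl, the ligand of the receptor Kit (ENSMUSG00000019966, chr10:100015630-100100416), had the largest decrease under the naming rule. It had 15.6, 12.5, 9.32 and 9.28 CPM in doxycycline old cultures. Kitl had 38.7, 30.3, 44.8, 24.5 and 34.2 CPM in untreated young cultures (log2 fold change -1.56 ± 0.21, edgeR adjusted p = 0.00228). Its groups stood apart, as the naming rule required, and untreated old cultures averaged 12.3 ± 3.57 CPM. Igf2bp2, an RNA-binding protein of fetal growth, averaged 4.58 ± 1.32 CPM in doxycycline old cultures and 12.5 ± 2.15 CPM in untreated young cultures (log2 fold change -1.45 ± 0.21, edgeR adjusted p = 0.00215). Grb10, an imprinted adaptor that restrains growth, averaged 5.42 ± 1.04 CPM in doxycycline old cultures and 12.5 ± 3.69 CPM in untreated young cultures (log2 fold change -1.20 ± 0.23, edgeR adjusted p = 0.00794). Gas1, a membrane protein first found in growth arrest, averaged 50.1 ± 6.43 CPM in doxycycline old cultures and 100.2 ± 16.1 CPM in untreated young cultures (log2 fold change -0.998 ± 0.13, edgeR adjusted p = 0.00152). Of 17 imprinted growth genes 1 was higher and 3 were lower (median log2 fold change -0.21), among them Mest (log2 fold change -0.68 ± 0.12, edgeR adjusted p = 0.00552) and Ndn (log2 fold change -0.33 ± 0.04, edgeR adjusted p = 0.00073). The share of imprinted growth genes called was 23.5%, against 18.7% of all tested genes. Without untreated young replicate 4 their lower count was 5. Of 4 tested genes of the growth RNA-binding list, Igf2bp2 and Hmga1 were lower (median -0.37), and that count was 1 without doxycycline old replicate 2 or 4 or untreated young replicate 2, 3 or 5.

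Members of Notch, Wnt and BMP signalling were called in both directions. Of 14 Notch genes 6 were lower and 2 higher (median log2 fold change -0.25). The receptors Notch2 (92.7 ± 12.4 CPM in doxycycline old cultures and 137 ± 10.1 CPM in untreated young cultures; log2 fold change -0.56 ± 0.089, edgeR adjusted p = 0.00265) and Notch1 (log2 fold change -0.26 ± 0.065, edgeR adjusted p = 0.0169) were lower. So were the ligand gene Jag1 (log2 fold change -0.24 ± 0.066, edgeR adjusted p = 0.0265) and the target gene Hes1 (12.4 ± 1.72 CPM in doxycycline old cultures and 18.2 ± 2.39 CPM in untreated young cultures; log2 fold change -0.55 ± 0.11, edgeR adjusted p = 0.00666). Dll3, a ligand-like protein that acts within the cell, was higher at 52.8 ± 4.78 CPM in doxycycline old cultures and 37.4 ± 3.70 CPM in untreated young cultures (log2 fold change 0.50 ± 0.075, edgeR adjusted p = 0.00202). The ligand gene Jag2 was higher too (log2 fold change 0.69 ± 0.14, edgeR adjusted p = 0.00692). Hes5, a target that stem cells use, was not called (log2 fold change 0.12 ± 0.16, edgeR adjusted p = 0.677). The lower count was 2 without doxycycline old replicate 3 and 3 without doxycycline old replicate 4. Notch1 missed the threshold without doxycycline old replicate 3 (adjusted p = 0.0534). Jag1 missed the threshold without doxycycline old replicate 3 or 4 (adjusted p from 0.0749 to 0.0897) and in a fit over the 13 libraries of 48 h differentiation (adjusted p = 0.0696).

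Of 18 Wnt genes 6 were lower and 1 higher (median log2 fold change -0.25). The ligand genes Wnt5a (80.6 ± 10.99 CPM in doxycycline old cultures and 141 ± 19.8 CPM in untreated young cultures; log2 fold change -0.80 ± 0.12, edgeR adjusted p = 0.00226) and Wnt7b (log2 fold change -0.54 ± 0.094, edgeR adjusted p = 0.00434) were lower. So were Axin2, a target of the beta-catenin branch (log2 fold change -0.34 ± 0.075, edgeR adjusted p = 0.0105), and the secreted inhibitor gene Sfrp1 (log2 fold change -0.47 ± 0.11, edgeR adjusted p = 0.0126). Lgr5, a receptor for R-spondins, was the member that was higher (7.84 ± 0.313 CPM in doxycycline old cultures and 6.26 ± 0.559 CPM in untreated young cultures; log2 fold change 0.33 ± 0.074, edgeR adjusted p = 0.0111). Lgr5 missed the threshold in a fit over all 65 libraries (adjusted p = 0.173).

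In the BMP and Id list 4 of 16 genes were higher and 1 lower (median log2 fold change 0.16). Id3, an inhibitor of bHLH factors and a target of BMP signalling (ENSMUSG00000007872, chr4:136143497-136145755), had 47.7, 54.7, 89.0 and 64.8 CPM in doxycycline old cultures. Id3 had 23.7, 29.2, 28.1, 33.9 and 35.9 CPM in untreated young cultures. Its treated old values were all above the young ones (log2 fold change 1.09 ± 0.20, edgeR adjusted p = 0.00758). Id1 averaged 31.7 ± 6.17 CPM in doxycycline old cultures and 17.1 ± 3.69 CPM in untreated young cultures (log2 fold change 0.89 ± 0.18, edgeR adjusted p = 0.00957). Id2 averaged 206 ± 19.1 CPM in doxycycline old cultures and 151 ± 21.9 CPM in untreated young cultures (log2 fold change 0.45 ± 0.11, edgeR adjusted p = 0.0182). Bmp4, given above, was the fourth, and the receptor gene Bmpr1b was lower (115 ± 5.93 CPM in doxycycline old cultures and 137 ± 11.6 CPM in untreated young cultures; log2 fold change -0.25 ± 0.062, edgeR adjusted p = 0.018). Id4 (log2 fold change 0.04 ± 0.08, edgeR adjusted p = 0.791) and the inhibitory Smad gene Smad6 (log2 fold change 0.45 ± 0.24, edgeR adjusted p = 0.227) were not called. Without doxycycline old replicate 3 or 4 the higher count was 2, and without doxycycline old replicate 3 no member was lower. Id2 missed the threshold without doxycycline old replicate 3 or 4 (adjusted p from 0.0506 to 0.0603). Bmpr1b missed the threshold without doxycycline old replicate 3 (adjusted p = 0.0685). In untreated old against untreated young cultures 3 higher and 0 lower of 16 tested members (median log2 fold change 0.18) were called.

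**Figure D2:**
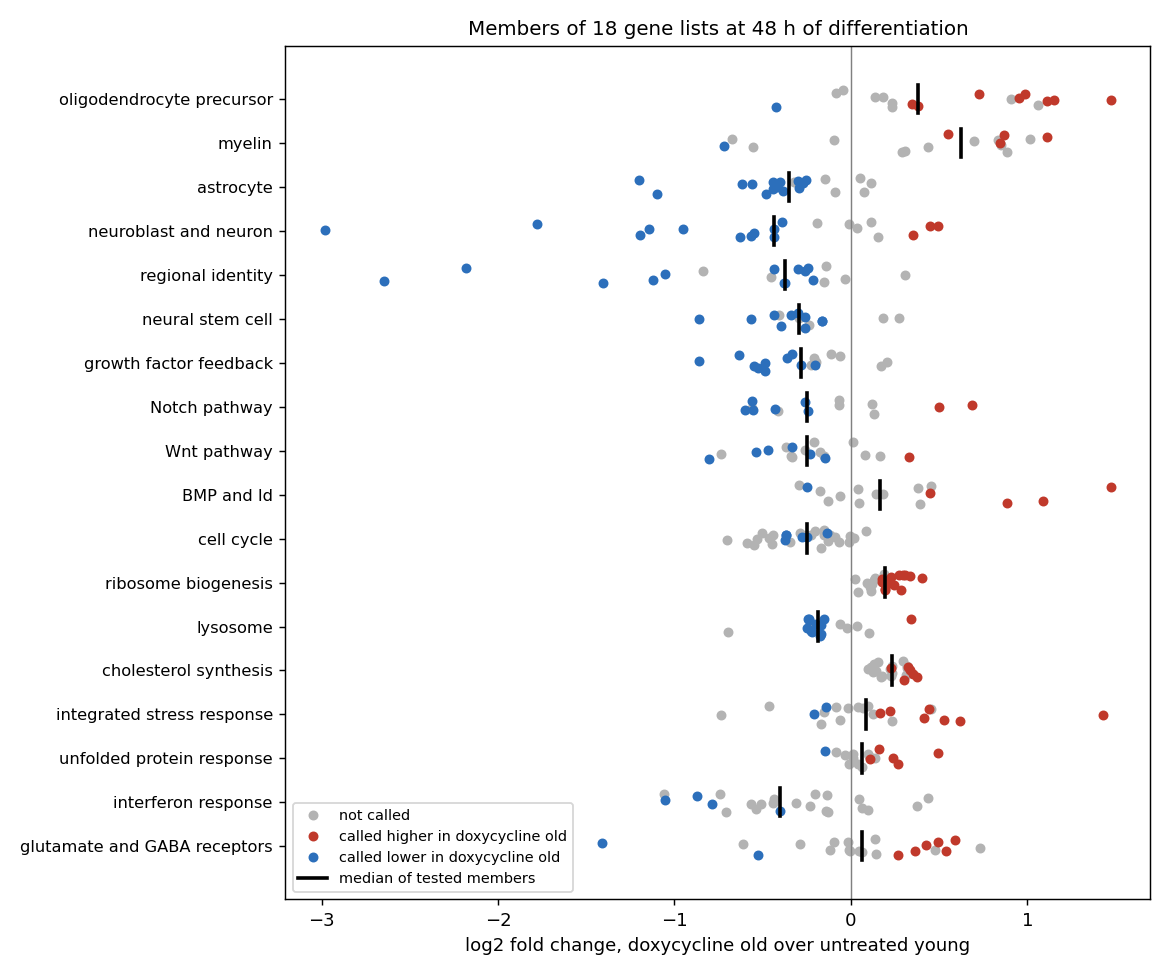
Log2 fold change, doxycycline old over untreated young at 48 h of differentiation, of each tested member of 18 gene lists; red points were called higher and blue points lower by edgeR, grey points were not called, and black bars are list medians. The oligodendrocyte precursor (median 0.38) and ribosome biogenesis (0.19) members lie mostly above 0, and the astrocyte (-0.35) and regional identity (-0.38) members mostly below, against a median of -0.0093 over all tested genes.

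Of 25 ribosome biogenesis genes 15 were higher and none was lower (median log2 fold change 0.19). All 25 log2 fold changes were positive, from 0.021 to 0.40. Nop56, a core protein of box C/D small nucleolar ribonucleoproteins (ENSMUSG00000027405, chr2:130274430-130279313), had 57.1, 62.1, 63.0 and 58.1 CPM in doxycycline old cultures. Nop56 had 45.4, 50.3, 49.1, 46.2 and 47.8 CPM in untreated young cultures. The groups did not overlap (log2 fold change 0.33 ± 0.042, edgeR adjusted p = 0.000838). Srm, spermidine synthase, averaged 61.3 ± 5.09 CPM in doxycycline old cultures and 46.4 ± 3.42 CPM in untreated young cultures (log2 fold change 0.40 ± 0.063, edgeR adjusted p = 0.00204). Polr1a, the largest subunit of RNA polymerase I, averaged 46.2 ± 3.11 CPM in doxycycline old cultures and 38.2 ± 1.35 CPM in untreated young cultures (log2 fold change 0.27 ± 0.048, edgeR adjusted p = 0.00319). Bop1, a factor of the large subunit, averaged 53.4 ± 3.51 CPM in doxycycline old cultures and 43.9 ± 2.06 CPM in untreated young cultures (log2 fold change 0.28 ± 0.047, edgeR adjusted p = 0.00249). Nop2, an rRNA methyltransferase (log2 fold change 0.18 ± 0.051, edgeR adjusted p = 0.033), and Pes1, the partner of Bop1 (log2 fold change 0.19 ± 0.054, edgeR adjusted p = 0.029), were higher with overlapping groups. Ncl (log2 fold change 0.14 ± 0.05, edgeR adjusted p = 0.0651) and Npm1 (log2 fold change 0.11 ± 0.05, edgeR adjusted p = 0.163), abundant nucleolar proteins, were not called. Without doxycycline old replicate 3 the count was 8. Nop2 missed the threshold without doxycycline old replicate 2, 3 or 4 or untreated young replicate 1, 3 or 5 (adjusted p from 0.063 to 0.094). Pes1 missed the threshold without doxycycline old replicate 2, 3 or 4 or untreated young replicate 1, 3 or 5 (adjusted p from 0.0538 to 0.0815). In untreated old against untreated young cultures 13 higher and 0 lower of 25 tested members (median log2 fold change 0.16) were called. Paired by animal, the members had a median log2 fold change of 0.01 between doxycycline old and untreated old cultures, with none of 25 called and 2 at an unadjusted p under 0.05.

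Lysosome genes moved the opposite way: of 18 members 11 were lower and 1 higher (median log2 fold change -0.19). Ctsd, the protease cathepsin D, had 434, 463, 412 and 429 CPM in doxycycline old cultures. Ctsd had 545, 498, 482, 540.0 and 502 CPM in untreated young cultures (log2 fold change -0.24 ± 0.05, edgeR adjusted p = 0.00747). All treated old values were below the young ones. Npc2, a cholesterol carrier of the lysosome, averaged 208 ± 10.3 CPM in doxycycline old cultures and 246 ± 8.66 CPM in untreated young cultures (log2 fold change -0.24 ± 0.042, edgeR adjusted p = 0.0033). Grn, progranulin, averaged 95.1 ± 7.31 CPM in doxycycline old cultures and 112 ± 5.70 CPM in untreated young cultures (log2 fold change -0.24 ± 0.054, edgeR adjusted p = 0.0103). The membrane proteins Lamp1 (1161 ± 47.5 CPM in doxycycline old cultures and 1309 ± 40.6 CPM in untreated young cultures; log2 fold change -0.17 ± 0.045, edgeR adjusted p = 0.0216) and Lamp2 (log2 fold change -0.23 ± 0.054, edgeR adjusted p = 0.0136) were lower too. Tfeb, a transcription factor of lysosome genes, was the member that was higher (14.9 ± 0.645 CPM in doxycycline old cultures and 11.8 ± 1.06 CPM in untreated young cultures; log2 fold change 0.34 ± 0.07, edgeR adjusted p = 0.00679). The lower count was 3 without doxycycline old replicate 3, 4 without doxycycline old replicate 4, 5 without untreated young replicate 1, 6 without doxycycline old replicate 1 and 7 without untreated young replicate 5, and the higher count 2 without untreated young replicate 4. Lamp1 missed the threshold without doxycycline old replicate 1, 3 or 4 or untreated young replicate 1 (adjusted p from 0.0525 to 0.0798) and with no filter on low counts (adjusted p = 0.0532). Lamp2 missed the threshold without doxycycline old replicate 3 (adjusted p = 0.0513). For the lysosome list, untreated old against untreated young cultures gave 0 higher and 5 lower of 18 tested members (median log2 fold change -0.12). Doxycycline old against untreated old cultures, paired by animal, gave 0 higher and 2 lower of 18 tested members (median log2 fold change -0.04).

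Promoter windows are shown for 4 of these genes because both lists are known for factors, MYC for ribosome biogenesis and TFEB for lysosomes, that bind around the letters CACGTG. These 4 were picked because their windows hold those letters. Windows are the 250 bases before to 50 bases after a start in RefSeq (GRCm38.p6), 5′ to 3′ on the gene's strand, with CACGTG in capitals. The windows are chr6:125131633-125131932 (plus strand) for Nop2, chr11:3963725-3964024 (plus) for Pes1, chr7:142387778-142388077 (minus) for Ctsd and chr8:13158911-13159210 (plus) for Lamp1.
Nop2: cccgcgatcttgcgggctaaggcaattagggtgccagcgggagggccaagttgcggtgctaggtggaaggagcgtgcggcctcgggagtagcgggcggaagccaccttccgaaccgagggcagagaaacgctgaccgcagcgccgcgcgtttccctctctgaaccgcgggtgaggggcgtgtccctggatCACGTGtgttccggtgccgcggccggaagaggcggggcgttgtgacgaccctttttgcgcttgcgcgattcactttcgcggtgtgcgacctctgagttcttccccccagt
Pes1: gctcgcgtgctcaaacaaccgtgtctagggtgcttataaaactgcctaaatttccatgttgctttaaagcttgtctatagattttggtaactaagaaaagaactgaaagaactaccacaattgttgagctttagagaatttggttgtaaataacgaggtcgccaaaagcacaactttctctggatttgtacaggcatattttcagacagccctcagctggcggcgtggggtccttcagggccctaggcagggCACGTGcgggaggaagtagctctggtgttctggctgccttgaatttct
Ctsd: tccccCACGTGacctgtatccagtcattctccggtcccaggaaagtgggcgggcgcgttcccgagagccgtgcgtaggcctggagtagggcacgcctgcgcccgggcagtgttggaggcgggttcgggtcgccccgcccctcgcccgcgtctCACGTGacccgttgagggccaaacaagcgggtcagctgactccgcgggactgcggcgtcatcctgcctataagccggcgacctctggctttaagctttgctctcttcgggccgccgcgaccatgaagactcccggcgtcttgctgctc
Lamp1: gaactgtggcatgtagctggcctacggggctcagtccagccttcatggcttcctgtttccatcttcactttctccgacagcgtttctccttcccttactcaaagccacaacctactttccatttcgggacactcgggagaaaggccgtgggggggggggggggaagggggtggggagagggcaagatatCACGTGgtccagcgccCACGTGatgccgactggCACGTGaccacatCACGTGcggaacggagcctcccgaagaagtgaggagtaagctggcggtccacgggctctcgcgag
CACGTG reads the same on both strands and stands inside the longer TCACGTGA, which TFEB favours. It occurred in 7.2% of the windows of 27025 genes, in 5 of 20 ribosome biogenesis genes with a window and in 4 of 14 lysosome genes with one. Among called members with a window it occurred in 2 of 11 ribosome biogenesis genes that were higher, both shown, and in 3 of 9 lysosome genes that were lower. TCACGTGA occurred in 1.0% of all windows, in none of the 20 and in 1 of the 14. A match describes these letters in this window and says nothing of binding.

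Of 22 genes of the integrated stress response, which ATF4 drives when amino acids or protein folding fall short, 7 were higher and 2 lower (median log2 fold change 0.08). Trib3, among the 7, stood near the minimum count of the filter in the untreated young libraries. Asns, asparagine synthetase, had 33.9, 40.7, 38.7 and 36.0 CPM in doxycycline old cultures. Asns had 26.9, 29.9, 26.0, 27.8 and 26.6 CPM in untreated young cultures (log2 fold change 0.44 ± 0.058, edgeR adjusted p = 0.000926), without overlap. Ddit4, an inhibitor of mTORC1, averaged 119 ± 6.97 CPM in doxycycline old cultures and 89.7 ± 7.91 CPM in untreated young cultures (log2 fold change 0.41 ± 0.064, edgeR adjusted p = 0.00185). Mthfd2, a mitochondrial folate enzyme, averaged 5.80 ± 0.872 CPM in doxycycline old cultures and 4.03 ± 0.365 CPM in untreated young cultures (log2 fold change 0.53 ± 0.11, edgeR adjusted p = 0.00679). Sesn2, a sensor of leucine, averaged 96.3 ± 4.84 CPM in doxycycline old cultures and 82.7 ± 3.59 CPM in untreated young cultures (log2 fold change 0.22 ± 0.043, edgeR adjusted p = 0.00562). Phgdh, the first enzyme of serine synthesis (log2 fold change -0.21 ± 0.041, edgeR adjusted p = 0.00586), and Slc3a2, a subunit of amino acid transporters (log2 fold change -0.14 ± 0.041, edgeR adjusted p = 0.0325), were lower. Atf4 itself (log2 fold change 0.07 ± 0.06, edgeR adjusted p = 0.504) and Ddit3 (log2 fold change 0.04 ± 0.05, edgeR adjusted p = 0.628) were not called. The lower count was 1 without doxycycline old replicate 3 or 4 or untreated young replicate 1 or 5. Slc3a2 missed the threshold without doxycycline old replicate 3 or 4 or untreated young replicate 1, 4 or 5 (adjusted p from 0.0538 to 0.115).

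Genes of the unfolded protein response gave 5 higher and 1 lower of 17 (median log2 fold change 0.06). Sdf2l1, part of an endoplasmic reticulum chaperone complex, averaged 16.7 ± 1.21 CPM in doxycycline old cultures and 11.8 ± 0.647 CPM in untreated young cultures (log2 fold change 0.49 ± 0.063, edgeR adjusted p = 0.000848). Hyou1, a chaperone, averaged 104 ± 4.82 CPM in doxycycline old cultures and 88.6 ± 1.94 CPM in untreated young cultures (log2 fold change 0.24 ± 0.038, edgeR adjusted p = 0.00205). Xbp1, the factor of the IRE1 branch (log2 fold change 0.27 ± 0.054, edgeR adjusted p = 0.00607), and Sel1l, of protein degradation (log2 fold change 0.16 ± 0.042, edgeR adjusted p = 0.0235), were higher and Dnajb9 lower (log2 fold change -0.15 ± 0.046, edgeR adjusted p = 0.0447), while Hspa5, the chaperone BiP, was not called (log2 fold change 0.14 ± 0.04, edgeR adjusted p = 0.0502). The higher count was 3 without doxycycline old replicate 1, 3 or 4 or untreated young replicate 1, and no member was lower without doxycycline old replicate 1, 3 or 4 or untreated young replicate 1, 2, 4 or 5.

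Of 22 cholesterol synthesis genes 6 were higher and no other was called (median log2 fold change 0.23), and all 22 fold changes were positive. Lss, lanosterol synthase, averaged 94.0 ± 3.26 CPM in doxycycline old cultures and 74.7 ± 8.80 CPM in untreated young cultures (log2 fold change 0.33 ± 0.075, edgeR adjusted p = 0.0122). Cyp51, the next enzyme of the pathway, averaged 133 ± 10.9 CPM in doxycycline old cultures and 104 ± 13.6 CPM in untreated young cultures (log2 fold change 0.35 ± 0.093, edgeR adjusted p = 0.0255). Ebp, a sterol isomerase, averaged 6.40 ± 0.207 CPM in doxycycline old cultures and 5.19 ± 0.285 CPM in untreated young cultures (log2 fold change 0.30 ± 0.066, edgeR adjusted p = 0.00921); Pmvk was higher as well (log2 fold change 0.23 ± 0.055, edgeR adjusted p = 0.0145). The count was 2 without doxycycline old replicate 3, 3 without doxycycline old replicate 2 or untreated young replicate 1 or 2 and 15 without untreated young replicate 3, 11 with DESeq2 and 16 in a fit over all 65 libraries. In untreated old against untreated young cultures none of 22 was called by edgeR (median 0.09, 3 at an unadjusted p under 0.05). Paired by animal, 14 of 22 were higher in doxycycline old than in untreated old cultures (median 0.16).

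Glycolysis and hypoxia genes gave 4 higher and 2 lower of 22 (median log2 fold change -0.01). Ldha, lactate dehydrogenase, averaged 168 ± 10.99 CPM in doxycycline old cultures and 136 ± 11.5 CPM in untreated young cultures (log2 fold change 0.30 ± 0.064, edgeR adjusted p = 0.00828), and Pkm (log2 fold change 0.16 ± 0.045, edgeR adjusted p = 0.0308) and Vegfa (log2 fold change 0.19 ± 0.043, edgeR adjusted p = 0.0117) were higher by less. Pdk1, which restrains pyruvate use by mitochondria, was lower at 48.1 ± 0.966 CPM in doxycycline old cultures and 61.4 ± 3.16 CPM in untreated young cultures (log2 fold change -0.35 ± 0.042, edgeR adjusted p = 0.000665), as was Adm, the hormone adrenomedullin, at 2.88 ± 0.777 CPM in doxycycline old cultures and 6.51 ± 0.665 CPM in untreated young cultures (log2 fold change -1.17 ± 0.17, edgeR adjusted p = 0.00134). The higher count was 2 without doxycycline old replicate 2, 3 or 4 or untreated young replicate 1 or 5. Ldha missed the threshold in a fit over all 65 libraries (adjusted p = 0.0544). Vegfa missed the threshold in a fit over all 65 libraries (adjusted p = 0.746). Pdk1 missed the threshold in a fit over all 65 libraries (adjusted p = 0.511). Of 14 metallothionein and antioxidant genes 4 were lower and none was higher (median -0.16, 6 of 14 at an unadjusted p under 0.05): Mt1 averaged 941 ± 75.2 CPM in doxycycline old cultures and 1239 ± 175 CPM in untreated young cultures (log2 fold change -0.40 ± 0.10, edgeR adjusted p = 0.0173). Mt2 averaged 682 ± 54.5 CPM in doxycycline old cultures and 901 ± 89.9 CPM in untreated young cultures (log2 fold change -0.40 ± 0.076, edgeR adjusted p = 0.00461). Mt3 averaged 712 ± 64.7 CPM in doxycycline old cultures and 900.0 ± 51.5 CPM in untreated young cultures (log2 fold change -0.34 ± 0.064, edgeR adjusted p = 0.00452), all metal-binding proteins, and Gclm, of glutathione synthesis, 127 ± 1.58 CPM in doxycycline old cultures and 151 ± 5.47 CPM in untreated young cultures (log2 fold change -0.25 ± 0.036, edgeR adjusted p = 0.00132). Mt2 missed the threshold in a fit over all 65 libraries (adjusted p = 0.0745). Of 13 mitochondrially encoded genes 1 was higher, mt-Nd2, a subunit of complex I, at 2707 ± 208 CPM in doxycycline old cultures and 2044 ± 131 CPM in untreated young cultures (log2 fold change 0.41 ± 0.067, edgeR adjusted p = 0.00233; list median 0.04); the count was 2 without doxycycline old replicate 1 or 3 or untreated young replicate 5.

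Of 23 interferon response genes 4 were lower and none was higher (median log2 fold change -0.40, 11 of 23 at an unadjusted p under 0.05). The 17.4% called was near the 18.7% over all tested genes, as was the 20% of antigen presentation genes and the 15.4% of complement and inflammation genes. Gbp3, a guanylate-binding protein, had 5.07, 4.70, 4.15 and 3.48 CPM in doxycycline old cultures. Gbp3 had 9.14, 8.198, 10.6, 9.43 and 7.89 CPM in untreated young cultures (log2 fold change -1.05 ± 0.12, edgeR adjusted p = 0.000509), without overlap. The RNA sensor gene Ddx58 averaged 7.28 ± 0.478 CPM in doxycycline old cultures and 9.62 ± 0.957 CPM in untreated young cultures (log2 fold change -0.40 ± 0.084, edgeR adjusted p = 0.00742). Rtp4 was low throughout, at 0.64 ± 0.0889 CPM in doxycycline old cultures and 1.18 ± 0.166 CPM in untreated young cultures (log2 fold change -0.87 ± 0.17, edgeR adjusted p = 0.00514). Irf7, a transcription factor of the pathway, was not called (log2 fold change 0.06 ± 0.20, edgeR adjusted p = 0.857). Of 15 antigen presentation genes 3 were lower and none higher (median -0.16, 3 at an unadjusted p under 0.05). These were B2m, the light chain of class I molecules (52.7 ± 4.08 CPM in doxycycline old cultures and 63.7 ± 3.49 CPM in untreated young cultures; log2 fold change -0.27 ± 0.056, edgeR adjusted p = 0.00705), the class I gene H2-K1 (log2 fold change -0.40 ± 0.086, edgeR adjusted p = 0.00828) and the chaperone gene Tapbp (log2 fold change -0.21 ± 0.044, edgeR adjusted p = 0.00779). Of 13 complement and inflammation genes 2 were lower and none higher (median -0.21, 4 at an unadjusted p under 0.05), the adhesion gene Vcam1 among them (log2 fold change -0.26 ± 0.077, edgeR adjusted p = 0.0353). That count was 0 without doxycycline old replicate 2, 3 or 4 or untreated young replicate 1 or 5 and 1 without doxycycline old replicate 1 or untreated young replicate 3 or 4. H2-K1 missed the threshold in a fit over all 65 libraries (adjusted p = 0.054). Vcam1 missed the threshold without doxycycline old replicate 2, 3 or 4 or untreated young replicate 1, 2, 3 or 5 (adjusted p from 0.0502 to 0.0982), with no filter on low counts (adjusted p = 0.0537) and in a fit over all 65 libraries (adjusted p = 0.247).

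Extracellular matrix genes moved in both directions, 4 higher and 5 lower of 27 (median log2 fold change -0.03). The proteoglycan genes Vcan (334 ± 42.7 CPM in doxycycline old cultures and 198 ± 30.4 CPM in untreated young cultures; log2 fold change 0.76 ± 0.12, edgeR adjusted p = 0.00341) and Ncan (log2 fold change 0.29 ± 0.087, edgeR adjusted p = 0.0402), which glia and precursors make, were higher. Also higher were Tnc, tenascin-C (log2 fold change 0.69 ± 0.20, edgeR adjusted p = 0.0426), and Col1a1 at a low level (0.506 ± 0.116 CPM in doxycycline old cultures and 0.244 ± 0.0554 CPM in untreated young cultures; log2 fold change 1.05 ± 0.26, edgeR adjusted p = 0.0179). Lamb1, a laminin chain (6.94 ± 0.275 CPM in doxycycline old cultures and 11.3 ± 1.25 CPM in untreated young cultures; log2 fold change -0.71 ± 0.084, edgeR adjusted p = 0.00062) and Thbs1, thrombospondin 1 (17.6 ± 1.10 CPM in doxycycline old cultures and 26.7 ± 3.36 CPM in untreated young cultures; log2 fold change -0.60 ± 0.087, edgeR adjusted p = 0.0014), were lower. The collagen gene Col5a2 (log2 fold change -0.51 ± 0.094, edgeR adjusted p = 0.0044) and the protease inhibitor gene Timp3 (log2 fold change -0.31 ± 0.071, edgeR adjusted p = 0.0107) were lower too. The higher count was 1 without doxycycline old replicate 3 or 4 and 2 without doxycycline old replicate 1 or untreated young replicate 1 or 2. Tnc missed the threshold without doxycycline old replicate 1, 3 or 4 or untreated young replicate 1, 2, 3 or 4 (adjusted p from 0.0562 to 0.12), with no filter on low counts (adjusted p = 0.0764) and with sex as covariate (adjusted p = 0.0633). Col1a1 missed the threshold without doxycycline old replicate 3 or 4 (adjusted p from 0.0635 to 0.0636). Of 14 actin and contraction genes 3 were lower and none higher (median -0.16, 5 at an unadjusted p under 0.05): Myl9 (log2 fold change -0.46 ± 0.10, edgeR adjusted p = 0.00879), Cnn2 (log2 fold change -0.42 ± 0.11, edgeR adjusted p = 0.0204) and Acta2 (0.994 ± 0.233 CPM in doxycycline old cultures and 2.06 ± 0.975 CPM in untreated young cultures; log2 fold change -1.05 ± 0.31, edgeR adjusted p = 0.0383). The 21.4% of actin and contraction genes called was near the 18.7% over all tested genes. Their count of lower members was 1 without doxycycline old replicate 3 or 4. Acta2 missed the threshold without doxycycline old replicate 1, 2, 3 or 4 or untreated young replicate 1 (adjusted p from 0.0529 to 0.0922), with no filter on low counts (adjusted p = 0.0601) and with limma on the deposited log2 values (adjusted p = 0.064). Of 18 immediate early genes 2 were lower and none higher (median -0.15, 5 at an unadjusted p under 0.05; 11.1% called against 18.7% over all tested genes), the factors Jun (log2 fold change -0.27 ± 0.061, edgeR adjusted p = 0.0107) and Klf6 (log2 fold change -0.30 ± 0.069, edgeR adjusted p = 0.0121). Jun missed the threshold in a fit over all 65 libraries (adjusted p = 0.0567).

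Neurotransmitter receptor genes gave 6 higher and 2 lower of 21 (median log2 fold change 0.07). Grin3a, an NMDA receptor subunit, had 144, 148, 163 and 151 CPM in doxycycline old cultures. Grin3a had 100.2, 111, 98.3, 101 and 110.4 CPM in untreated young cultures, and no value overlapped (log2 fold change 0.54 ± 0.051, edgeR adjusted p = 0.000292). The AMPA receptor genes Gria3 (51.3 ± 4.64 CPM in doxycycline old cultures and 34.1 ± 1.63 CPM in untreated young cultures; log2 fold change 0.59 ± 0.06, edgeR adjusted p = 0.000348) and Gria2 (log2 fold change 0.27 ± 0.058, edgeR adjusted p = 0.00878) and the kainate receptor gene Grik4 (log2 fold change 0.42 ± 0.061, edgeR adjusted p = 0.00132) were higher. The NMDA receptor genes Grin2b (2.56 ± 0.896 CPM in doxycycline old cultures and 6.80 ± 1.35 CPM in untreated young cultures; log2 fold change -1.41 ± 0.24, edgeR adjusted p = 0.00425) and Grin2c (log2 fold change -0.53 ± 0.11, edgeR adjusted p = 0.00883) were lower. Of 14 clustered protocadherins, adhesion proteins that give neurons distinct surfaces, 6 were higher and 1 lower (median 0.01). Pcdhb2, encoded by a single exon, averaged 24.6 ± 3.71 CPM in doxycycline old cultures and 13.6 ± 1.85 CPM in untreated young cultures (log2 fold change 0.86 ± 0.12, edgeR adjusted p = 0.00132). Pcdhb20 was lower (log2 fold change -0.33 ± 0.08, edgeR adjusted p = 0.0159). Genes of the alpha and gamma clusters share their last exons, so reads of single members, Pcdhac1 (log2 fold change 0.63 ± 0.11, edgeR adjusted p = 0.00358) and Pcdhac2 (log2 fold change 0.56 ± 0.083, edgeR adjusted p = 0.00177) among them, cannot be separated with certainty. Without doxycycline old replicate 3 no protocadherin was lower.

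Further genes among the 15 with the largest increase had varied roles. Cbln2, a synaptic organiser of the cerebellin family, averaged 9.89 ± 3.48 CPM in doxycycline old cultures and 3.43 ± 0.998 CPM in untreated young cultures (log2 fold change 1.53 ± 0.28, edgeR adjusted p = 0.00666). Lims2, an adaptor of focal adhesions, averaged 330.0 ± 46.5 CPM in doxycycline old cultures and 155 ± 38.5 CPM in untreated young cultures (log2 fold change 1.09 ± 0.20, edgeR adjusted p = 0.00718). Csmd3, a large transmembrane protein (log2 fold change 1.19 ± 0.17, edgeR adjusted p = 0.00203), Dach2, a transcription cofactor (log2 fold change 1.18 ± 0.15, edgeR adjusted p = 0.000915), and S100a6, a calcium-binding protein (log2 fold change 1.14 ± 0.19, edgeR adjusted p = 0.00418), were higher as well. The same held for Gng4, a G protein subunit (log2 fold change 1.38 ± 0.35, edgeR adjusted p = 0.0304), and Cpm, carboxypeptidase M (log2 fold change 1.09 ± 0.25, edgeR adjusted p = 0.016). Inava (log2 fold change 1.13 ± 0.20, edgeR adjusted p = 0.00666) and the collagen gene Col11a2 (log2 fold change 1.08 ± 0.28, edgeR adjusted p = 0.0292) completed this group. Among the 15 with the largest decrease, Slc24a4, a sodium, calcium and potassium exchanger, averaged 11.04 ± 1.03 CPM in doxycycline old cultures and 22.9 ± 6.95 CPM in untreated young cultures (log2 fold change -1.05 ± 0.20, edgeR adjusted p = 0.00833). A2m, a protease inhibitor (log2 fold change -1.14 ± 0.32, edgeR adjusted p = 0.0437), Itih3 (log2 fold change -0.96 ± 0.11, edgeR adjusted p = 0.000579) and the glutamate receptor gene Grm3 (log2 fold change -0.89 ± 0.19, edgeR adjusted p = 0.0126) were also lower. So were Mpped1 (log2 fold change -0.88 ± 0.15, edgeR adjusted p = 0.00388), Zfp853 (log2 fold change -0.85 ± 0.12, edgeR adjusted p = 0.00143) and Adamts12, a metalloprotease (log2 fold change -0.84 ± 0.22, edgeR adjusted p = 0.0273). Gng4 missed the threshold without doxycycline old replicate 2, 3 or 4 or untreated young replicate 1 or 5 (adjusted p from 0.056 to 0.0897) and with no filter on low counts (adjusted p = 0.0564). Cpm missed the threshold without doxycycline old replicate 3 (adjusted p = 0.054). Col11a2 missed the threshold without doxycycline old replicate 3 or 4 or untreated young replicate 1 or 2 (adjusted p from 0.0609 to 0.0892) and with no filter on low counts (adjusted p = 0.0546). A2m missed the threshold without doxycycline old replicate 1, 2, 3 or 4 or untreated young replicate 1 or 5 (adjusted p from 0.0725 to 0.116) and with no filter on low counts (adjusted p = 0.07). Adamts12 missed the threshold without doxycycline old replicate 2, 3 or 4 or untreated young replicate 1 (adjusted p from 0.0504 to 0.0859) and with no filter on low counts (adjusted p = 0.0654).

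Doxycycline old and untreated old cultures, which came from the same animals, were set against each other for the same genes. In the fit without pairing 5 genes were called. P2ry2, a receptor for extracellular nucleotides (ENSMUSG00000032860, chr7:100996568-101012866), had 18.4, 19.1, 16.1 and 15.9 CPM in doxycycline old cultures. P2ry2 had 11.4, 11.3, 12.3, 7.05 and 9.60 CPM in untreated young cultures, and untreated old cultures had 11.2, 10.1, 10.2 and 8.07 CPM. Doxycycline old libraries stood above both untreated groups, with log2 fold changes of 0.75 ± 0.14 over young (edgeR adjusted p = 0.00552) and 0.81 ± 0.10 over untreated old cultures (edgeR adjusted p = 0.0113).

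1700025G04Rik, a gene without a known role here, averaged 179.5 ± 7.29 CPM in doxycycline old, 130.4 ± 5.12 CPM in untreated old and 115 ± 8.76 CPM in untreated young cultures. It was higher than in young (log2 fold change 0.64 ± 0.054, edgeR adjusted p = 0.000278) and in untreated old cultures (log2 fold change 0.46 ± 0.041, edgeR adjusted p = 0.00145). Filip1l averaged 4.30 ± 0.519 CPM in doxycycline old, 2.30 ± 0.135 CPM in untreated old and 3.15 ± 0.297 CPM in untreated young cultures. It differed from young cultures (log2 fold change 0.45 ± 0.11, edgeR adjusted p = 0.013) and from untreated old cultures (log2 fold change 0.90 ± 0.11, edgeR adjusted p = 0.0113). The complex I gene mt-Nd2 averaged 2707 ± 208 CPM in doxycycline old, 1749 ± 137 CPM in untreated old and 2044 ± 131 CPM in untreated young cultures, above untreated old cultures too (log2 fold change 0.63 ± 0.07, edgeR adjusted p = 0.00833). Untreated old cultures were below untreated young cultures in Filip1l (log2 fold change -0.45 ± 0.10, edgeR adjusted p = 0.0186) and mt-Nd2 (log2 fold change -0.22 ± 0.064, edgeR adjusted p = 0.0457). Glycam1, a mucin-like glycoprotein, was the gene that was lower, at 3.72 ± 0.457 CPM in doxycycline old, 7.16 ± 1.09 CPM in untreated old and 9.62 ± 4.23 CPM in untreated young cultures. It differed from young cultures (log2 fold change -1.37 ± 0.32, edgeR adjusted p = 0.0201) and from untreated old cultures (log2 fold change -0.95 ± 0.12, edgeR adjusted p = 0.0113). Glycam1 missed the threshold without doxycycline old replicate 1, 2 or 3 (adjusted p from 0.0528 to 0.0695). This count of 5 was 2 without doxycycline old replicate 1 or 2 or untreated old replicate 3, and 1 without untreated old replicate 2.

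A list of 7 genes named for their response to doxycycline was chosen on these libraries, so its direction is no independent evidence; 4 of 7 were higher than in young cultures and none lower (median log2 fold change 0.43). Agpat4, an acyltransferase of phospholipid synthesis, averaged 34.8 ± 4.12 CPM in doxycycline old cultures and 18.97 ± 2.74 CPM in untreated young cultures (log2 fold change 0.88 ± 0.11, edgeR adjusted p = 0.00128). The taurine transporter gene Slc6a6 averaged 37.2 ± 4.51 CPM in doxycycline old cultures and 21.1 ± 3.36 CPM in untreated young cultures (log2 fold change 0.82 ± 0.12, edgeR adjusted p = 0.00238). The nucleoside transporter gene Slc29a3 averaged 49.8 ± 1.58 CPM in doxycycline old cultures and 44.9 ± 0.939 CPM in untreated young cultures (log2 fold change 0.15 ± 0.033, edgeR adjusted p = 0.00841).

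**Figure D3:**
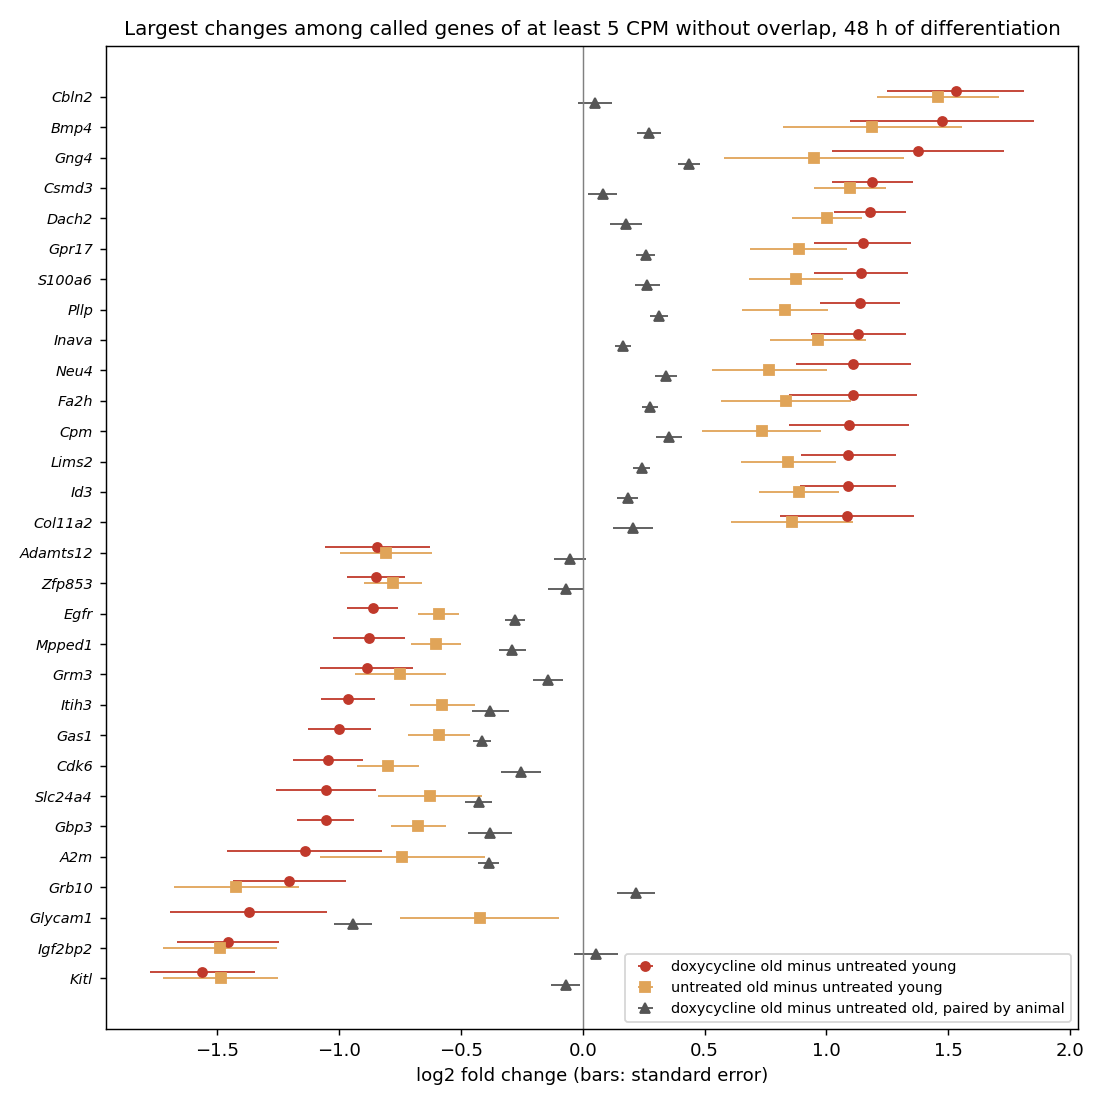
Log2 fold change ± SE of 30 genes in doxycycline old against untreated young cultures (red circles), the 15 in each direction with the largest change among called genes of at least 5 CPM whose groups did not overlap, with untreated old against untreated young (orange squares) and doxycycline old against untreated old paired by animal (grey triangles). Kitl lies at -1.56 (red), -1.48 (orange) and -0.07 (grey), and Gpr17 at 1.15 (red), 0.89 (orange) and 0.26 (grey). The red points share young libraries with the orange and doxycycline old libraries with the grey ones.

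Whether the difference already stood in stem cell medium was asked with a contrast of the 48 h difference against that between doxycycline old and untreated young cultures after 18 h in stem cell medium with EGF and bFGF (18 libraries). Each log2 value of this contrast is the log2 fold change at 48 h minus that in stem cell medium. Medium, time in culture and, in treated cultures, time with doxycycline differ together between these settings. The contrast cannot tell them apart. Of 17750 genes 732 (4.12%) differed, 405 (2.28%) with the 48 h difference on the higher side and 327 (1.84%) on the lower. With libraries of an animal as blocks 768 (4.33%) differed, 431 (2.43%) on the higher side and 337 (1.9%) on the lower. The largest of these among the genes named here was Dlx1 (log2 difference -1.47 ± 0.28, edgeR adjusted p = 0.0057), which in stem cell medium averaged 1.69 ± 0.228 CPM in doxycycline old and 2.09 ± 0.453 CPM in untreated young cultures. Id3 averaged 155 ± 4.84 CPM in doxycycline old and 169.7 ± 9.72 CPM in untreated young cultures in stem cell medium, and the 48 h difference exceeded that one (log2 difference 1.22 ± 0.20, edgeR adjusted p = 0.00396). Id1 followed it (log2 difference 0.93 ± 0.20, edgeR adjusted p = 0.0153), and Pllp did so too (log2 difference 0.89 ± 0.22, edgeR adjusted p = 0.03).

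Egfr averaged 343 ± 20.9 CPM in doxycycline old and 383 ± 26.9 CPM in untreated young cultures in stem cell medium, and relative to young cultures it lay lower at 48 h (log2 difference -0.70 ± 0.12, edgeR adjusted p = 0.00473). The same was found for Spry2 (log2 difference -0.40 ± 0.073, edgeR adjusted p = 0.00499), Wnt5a (log2 difference -0.68 ± 0.14, edgeR adjusted p = 0.0103) and Notch2 (log2 difference -0.44 ± 0.11, edgeR adjusted p = 0.0347), the last with an adjusted p of 0.0531 with animals as blocks. Kitl (log2 difference -0.94 ± 0.23, edgeR adjusted p = 0.0301) and Gas1 (log2 difference -0.82 ± 0.14, edgeR adjusted p = 0.00517) were also lower relative to young cultures at 48 h. Klf4 of the cassette did so as well (log2 difference -0.90 ± 0.17, edgeR adjusted p = 0.00581). Of 25 ribosome biogenesis genes 3 differed, Nop56 (log2 difference 0.29 ± 0.064, edgeR adjusted p = 0.0153), Srm (log2 difference 0.37 ± 0.079, edgeR adjusted p = 0.0124) and Polr1a (log2 difference 0.23 ± 0.057, edgeR adjusted p = 0.0238), each with the larger difference at 48 h. Of 22 integrated stress response genes 7 differed, all with the 48 h difference below that in stem cell medium (list median -0.32), Phgdh among them (log2 difference -0.50 ± 0.071, edgeR adjusted p = 0.000996). With libraries of an animal as blocks 6 lay lower and 1 higher. The summed level of all 22 was 2654 ± 78.2 CPM in doxycycline old and 2207 ± 56.0 CPM in untreated young cultures in stem cell medium. At 48 h it was 1834 ± 72.0 CPM in doxycycline old and 1819 ± 36.2 CPM in untreated young cultures. Gpr17 did not pass (log2 difference -0.05 ± 0.42, edgeR adjusted p = 0.973), nor did Slc1a3 (log2 difference -0.23 ± 0.086, edgeR adjusted p = 0.152) or Gad1 (log2 difference -0.52 ± 0.17, edgeR adjusted p = 0.097). The count of 732 was 211 without doxycycline old replicate 3, 358 without doxycycline old replicate 4 and 348 without untreated young replicate 1, each with its stem cell medium library.

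Levels over time place these values, with no test between times. In the order 18 h with growth factors, then 6, 18 and 48 h after their withdrawal, Gpr17 averaged 3.39 ± 1.10, 81.8 ± 13, 879.9 ± 128 and 3112 ± 426 CPM in doxycycline old cultures, against 1.47 ± 0.751, 32.3 ± 10.03, 385 ± 111 and 1403 ± 370.5 CPM in untreated young cultures. It was at its highest at 48 h in both groups. Egfr averaged 343 ± 20.9, 584 ± 43.5, 546 ± 42.1 and 347 ± 57.2 CPM in doxycycline old cultures, against 383 ± 26.9, 714 ± 39.8, 741 ± 22.6 and 631 ± 55.3 CPM in untreated young cultures. Young cultures held more of it at each of these times. Id3 averaged 155 ± 4.84, 106 ± 4.75, 87.8 ± 7.12 and 64.0 ± 17.8 CPM in doxycycline old cultures, against 169.7 ± 9.72, 97.2 ± 4.65, 76.3 ± 5.52 and 30.1 ± 4.65 CPM in untreated young cultures. The gap between its group means was largest at 48 h. Nop56 averaged 149 ± 8, 40.5 ± 2.19, 35.7 ± 2.28 and 60.1 ± 3.27 CPM in doxycycline old cultures, against 144 ± 6.35, 41.0 ± 3.89, 30.8 ± 1.94 and 47.7 ± 2.13 CPM in untreated young cultures, lowest in both groups at 18 h of differentiation. Cdkn1c averaged 2.01 ± 0.425, 16.8 ± 3.82, 11.4 ± 1.31 and 8.89 ± 2.16 CPM in doxycycline old cultures, against 1.04 ± 0.122, 8.05 ± 1.95, 5.53 ± 0.586 and 4.49 ± 0.654 CPM in untreated young cultures, higher in doxycycline old cultures at all 4 points.

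**Figure D4:**
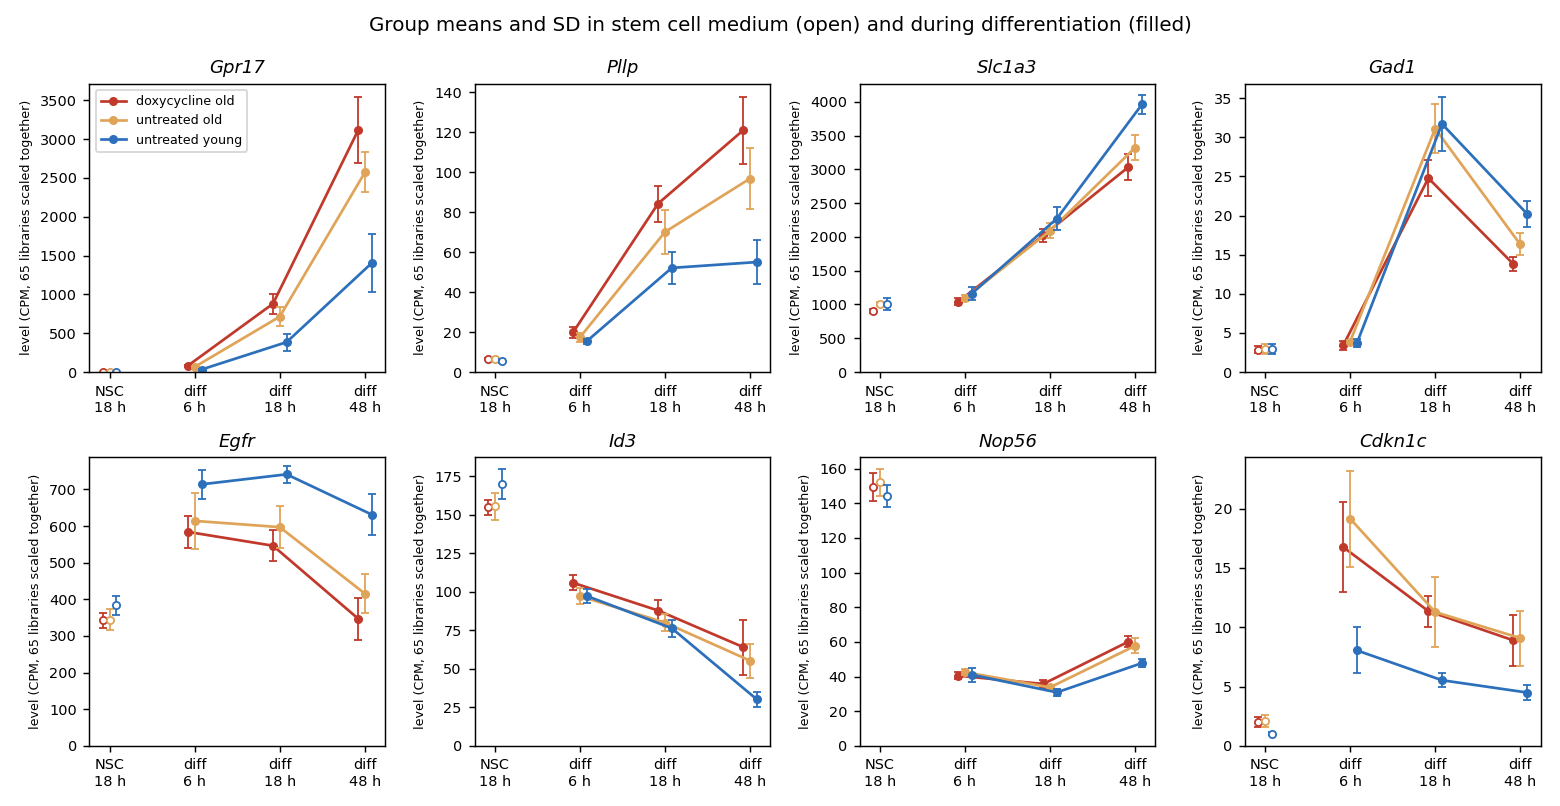
Mean ± SD level of 8 genes, in TMM-scaled CPM, after 18 h with growth factors (open symbols) and 6, 18 and 48 h after their withdrawal, for doxycycline old (n = 4), untreated old (n = 4) and untreated young (n = 5) cultures. Gpr17 has its highest mean at 48 h, where it averages 3112 ± 426 CPM in doxycycline old and 1403 ± 370.5 CPM in untreated young cultures.

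Markers of other cell types were low. Summed over each list, microglia markers ran from 41.2 to 46.2 CPM in doxycycline old and 46.6 to 51.3 CPM in untreated young libraries. Endothelial markers ran from 4.30 to 5.82 CPM in doxycycline old and 5.63 to 8.22 CPM in untreated young libraries, mural markers from 115 to 140.1 CPM in doxycycline old and 104 to 159 CPM in untreated young libraries and fibroblast markers from 69.1 to 86.0 CPM in doxycycline old and 89.9 to 115 CPM in untreated young libraries. Ependymal markers ran from 55.5 to 62.2 CPM in doxycycline old and 62.7 to 90.4 CPM in untreated young libraries and choroid plexus markers from 4.06 to 4.63 CPM in doxycycline old and 4.34 to 7.58 CPM in untreated young libraries. Mature neuron markers ran from 17.5 to 23.2 CPM in doxycycline old and 17.3 to 24.1 CPM in untreated young libraries, and Rbfox3, which encodes NeuN, was lower (log2 fold change -0.44 ± 0.11, edgeR adjusted p = 0.0169). Muscle markers ran from 26.1 to 31.9 CPM in doxycycline old and 31.6 to 39.1 CPM in untreated young libraries, pluripotent markers from 2.01 to 2.24 CPM in doxycycline old and 1.85 to 2.74 CPM in untreated young libraries and erythroid markers from 0.226 to 0.753 CPM in doxycycline old and 0.291 to 0.585 CPM in untreated young libraries. Microglia, fibroblast and ependymal sums were lower in doxycycline old libraries without overlap (exact two-sided permutation p = 0.0159 each, adjusted p = 0.0406 over 23 single values). With CPM on library totals the smallest adjusted p of any of the 23 was 0.0608. Nearly all of the fibroblast sum was Pdgfra, given above as a gene of early oligodendrocyte precursors. Of the other tested fibroblast markers Col1a1 was higher, and Twist1 passed the filter on low counts through the young libraries alone. Endothelial and choroid plexus sums (exact permutation p = 0.0476, adjusted p = 0.0842 each) and muscle sums (exact permutation p = 0.0317, adjusted p = 0.0664) did not pass. The part of these cell types in the results was not tested. Tmem212, Zfp42 and the 4 haemoglobin genes had no count in any of the 9 libraries, and Cx3cr1, Tmem119, Cldn5, Cdh5, Dcn, Lum, Ttr and Slc17a7 were too low to test.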

How the data were processed

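Per the labels' protocols, poly(A) RNA was sequenced as paired reads. Per the submitters' processing notes, DESeq2 1.40.1, STAR 2.7.10b, Subread, SAMtools and Trim Galore 0.6.6 were used with mouse build mm10; their settings are not given in the sources used here. The deposited count table holds whole-number counts for 31057 features and 65 libraries (31011 named from GENCODE M21, 4 transgene sequences, 42 unmatched). It holds 75644 values of 2 and 19963 of 1, and 73.2% of values from 1 to 20 are even. Whether the authors counted both mates of a pair is not given in the sources used here, and halved counts were an alternative. The authors also deposited variance-stabilised log2 values, used only as an alternative with limma 3.58.1. Libraries held 56.5 M to 116.8 M counts, and no 2 libraries were identical.

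From the counts, CPM were computed with TMM factors, and groups were compared with edgeR 4.0.16 in R 4.3.3 (TMM, filterByExpr at minimum count 10, robust quasi-likelihood test, Benjamini-Hochberg adjustment over all tested genes, calls at an adjusted p under 0.05). DESeq2 1.42.0 was an alternative. Each ± after a log2 fold change is its SE. Single values were compared with exact two-sided permutation tests, whose smallest p is 0.0159 with 4 against 5. Principal components used 500 genes. Old and young replicate numbers name different animals; within old animals the number names the same animal, and there deviations from the group means correlated by 0.554 to 0.800 between doxycycline and untreated old libraries of one animal (4 of 4 closest to their own animal), by 0.386 to 0.622 between times in doxycycline old animals and by 0.306 to 0.642 in young animals, over 11527 genes. Where nothing says that libraries of an animal come from separate cultures, p-values measure the spread between animals.

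Named genes were up to 15 per direction with the largest change among called genes of at least 5 CPM whose groups did not overlap, up to 4 called members per direction and list of at least 1 CPM, the cassette, and the calls against untreated old cultures. For the genes of largest change, groups without overlap were a condition of naming and are no result. Outside this rule, Tnr, C1ql1, Opalin, Robo2, Insm1, Vim, Spred1, Nop2, Pes1, Lamp1, Rtp4, Col1a1, Etv5, Dusp6, Slc1a2, Nr2f2, Mbp, Gfap and list members named as not called were chosen after their values were seen. The comparison, the 34 lists (605 symbols, 1 without a feature, 541 tested) and the rule were chosen with earlier results of these data known. Scripts were tested on simulated data.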

Additional observations from a re-analysis of the deposited data

Results flagged for a closer look

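Of 336 sets of replicate values checked, 18 held a library far from the others of its group; chance marks about 1 in 20. In doxycycline old cultures these were Mal at 1.74 CPM in replicate 2, Cdk6 at 9.29 CPM in replicate 1, Ndn at 40.3 CPM in replicate 2, Hmgb2 at 17.7 CPM in replicate 3, Rrm2 at 5.73 CPM in replicate 4, Ddit4 at 129.6 CPM in replicate 3 and Pcdhb2 at 30.1 CPM in replicate 3. The ribosomal RNA share was 0.271% in doxycycline old replicate 2, and the summed muscle markers 31.9 CPM in doxycycline old replicate 4. In untreated young cultures they were Notch1 at 387 CPM, Dll3 at 44.0 CPM, Adamts12 at 31.0 CPM and Pdk1 at 55.9 CPM in replicate 3, Foxm1 at 5.16 CPM in replicate 5, Bop1 at 47.6 CPM in replicate 2 and Vcam1 at 178 CPM in replicate 4. The ribosomal RNA share was 1.98% in untreated young replicate 3, and the summed mature neuron markers 17.4 CPM in untreated young replicate 4.

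The difference between doxycycline old and untreated young cultures was not the same at 48 h of differentiation and at 18 h in stem cell medium for 732 genes (edgeR). Medium and time differ together in this contrast. Among the genes named here, the 48 h difference exceeded that in stem cell medium, on the log2 scale, by 0.89 (Pllp), 0.93 (Id1), 1.22 (Id3), 0.29 (Nop56), 0.37 (Srm), 0.23 (Polr1a), 0.49 (Sdf2l1), 0.22 (Hyou1), 0.66 (Grin3a), 0.55 (Gria3), 0.58 (Slc6a6, adjusted p = 0.0776 with animals as blocks) and 0.75 (1700025G04Rik). It lay below that in stem cell medium by log2 differences of -1.47 (Dlx1), -1.16 (Igfbpl1), -0.70 (Egfr), -0.90 (Klf4), -0.40 (Spry2), -0.44 (Notch2), -0.68 (Wnt5a), -0.94 (Kitl), -0.82 (Gas1), -0.73 (Gbp3), -0.51 (Lamb1), -0.38 (Slc29a3), -0.92 (Adm), -0.50 (Phgdh) and -0.33 (Slc3a2).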

How the results depend on the processing

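For doxycycline old against untreated young cultures the count of 3175 calls ran from 1628 to 3186 with one library left out, was 1728 in males and 123 in females alone, and stayed within 1.5 times with RLE size factors, no filter, DESeq2, sex as covariate, halved counts, the deposited log2 values or fits over 13 or 65 libraries. With the replicate number as a block it was 2858; same-numbered old and young animals are different animals, their deviations correlated by -0.564 to 0.738, 2 of 4 were closest to their own number, and the block is no pairing. Untreated old against untreated young gave 2747 calls with DESeq2 and 572 to 2461 with one library left out. Doxycycline old against untreated old gave 90 with DESeq2, 701 with the animal as block and 1 to 5 with one library left out. The contrast with stem cell medium gave 1317 with DESeq2 and 211 to 890 with one animal left out (348 without untreated young replicate 1, 358 without doxycycline old replicate 4). Called members over all lists numbered 204 of 541, 19 in females alone and 135 to 204 with one library left out. Of 23 single values 9 passed the adjusted exact permutation test, 0 with CPM on library totals, 0 on totals without mitochondrial and ribosomal RNA features (13 at an unadjusted p under 0.05 in each) and 0 with any one library left out (9 to 13 at an unadjusted p under 0.05), where fewer libraries raise the smallest possible p to 0.0286 or 0.0357. The cause of the other moves was not tested. Among uncalled values, M2rtTA changed sign, with log2 fold changes of -0.0089 with the replicate block, -0.0056 in males, and -0.0286 to -0.0111 without doxycycline old replicate 2 (-0.0286) or untreated young replicates 4 (-0.0256) and 5 (-0.0111), and CPM differences there of -1.85, -1.98 and -0.966 (range -1.98 to 2.44). Gfap did so with sex as covariate (-0.0889), in males (-0.0404) and females (-0.13), and without doxycycline old replicate 3 (-0.04) or 4 (-0.30) or untreated young replicate 1 (-0.04), 2 (-0.10) or 3 (-0.19), in a range of -0.30 to 0.60 with one library left out. The mitochondrial share difference was -0.0709 without doxycycline old replicate 4, -0.00678 without untreated young replicate 1 and -0.0217 without replicate 2 (percentage points; range -0.0709 to 0.118), and that of summed mature neuron markers 0.698 without doxycycline old replicate 4 and 0.0253 without untreated young replicate 1 (CPM; range -1.66 to 0.698). Over 150 named genes the call and direction held for all with DESeq2 and with RLE size factors, 146 with sex as covariate, 135 over 65 libraries, 111 in males and 26 in females alone; the sex splits hold 4 and 5 libraries.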

Other observations

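Several called genes lay near or under 1 CPM and were named after their values were seen. Twist1, a mesenchymal transcription factor, had 0, 2, 0 and 2 counts in the doxycycline old libraries and 16, 17, 14, 47 and 45 counts in the untreated young libraries. Dlx5, of the interneuron lineage, had 1, 4, 0 and 3 counts in the doxycycline old libraries and 24, 15, 20, 17 and 5 counts in the untreated young libraries. Both genes passed the filter on low counts through the young libraries alone, so no fold change is given. Zic4, a neighbour of Zic1 in the genome, had 11, 10, 6 and 4 counts in the doxycycline old libraries. Zic4 had 49, 27, 63, 29 and 7 counts in the untreated young libraries. Trib3, a pseudokinase induced by ATF4, had 36, 43, 30 and 14 counts in the doxycycline old libraries. Trib3 had 8, 14, 12, 8 and 12 counts in the untreated young libraries. Both stood near or under the filter's minimum count of 10 in the group where they were lower. No fold change is given for them either. Aqp1, a water channel of the choroid plexus, was higher at a mean of 2.43 CPM in doxycycline old and 0.956 CPM in untreated young cultures (log2 fold change 1.34 ± 0.21, edgeR adjusted p = 0.00205), while Otx2, on the same marker list, was lower. At such levels few reads stand behind each value.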
